A study of Mus musculus with 16 samples.

Results

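Levels of 9 transcripts of the malate-aspartate shuttle and the alanine aminotransferases were followed through fat cells and liver of mice labelled as lacking Trib1 in adipocytes. The genes, Got1, Got2, Mdh1, Mdh2, Slc25a11, Slc25a12, Slc25a13, Gpt and Gpt2, were chosen by symbol from the 23420 genes of the count tables, and all 9 were present and passed the filter on low counts in every comparison. Got2 was picked because its level had been seen to be higher in knockout-labelled adipocytes. Genotype differences in adipocytes are therefore given for these genes as a description, with no p of their own, and the same holds for the difference of genotype effects between the tissues, which contains that contrast. Genotype differences in liver and differences between the tissues were not what Got2 was picked for, and they were tested. The tissue differences do use the adipocyte values of that choice. Where they differ between the genotypes, this is therefore a description as well. The 9 genes were still chosen with earlier results of these data known.

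The knockout-labelled mice carry the label of a Trib1 deletion restricted to adipocytes. Trib1 encodes the pseudokinase tribbles 1, and the controls are labelled wild-type. All 8 mice were C57BL/6 males, 4 of each genotype, and each gave 2 libraries, from liver and from subcutaneous adipocytes freed with collagenase, which makes 16 libraries in 4 groups of 4. The knockout-labelled mice were KO-1137 and KO-1139, taken on postnatal day 76, and KO-1151 and KO-1152, taken on day 70. The wild-type mice were WT-1135, WT-1136 and WT-1138, taken on day 76, and WT-1153, taken on day 70. The labels name neither the driver of the deletion nor the deleted part of the gene. Trib1 itself overlapped between the labels in adipocytes, with 911 to 1195 CPM in knockout-labelled and 616 to 1063 CPM in wild-type libraries, and in liver, with 49.7 to 92.8 CPM in knockout-labelled and 61.2 to 86.6 CPM in wild-type libraries, so genotypes are given here as labels. CPM values are counts scaled to a common library size, with factors from the trimmed mean of M values (TMM) over the 16 libraries. Adipoq, the gene of the fat-cell hormone adiponectin, was at 3690 to 4201 CPM in knockout-labelled and 2242 to 3366 CPM in wild-type adipocytes, against 0 to 3.10 CPM in liver. Total counts were 28560887 to 53716669 per library. Replicates are separate mice.

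The malate-aspartate shuttle carries the reducing power of cytosolic NADH into mitochondria, whose inner membrane NADH cannot cross. Cytosolic malate dehydrogenase (Mdh1) reduces oxaloacetate to malate with NADH, the oxoglutarate carrier (Slc25a11) takes malate in, and the mitochondrial enzyme (Mdh2) makes oxaloacetate and NADH again. Mitochondrial aspartate aminotransferase (Got2) turns oxaloacetate into aspartate, which leaves through an aspartate-glutamate carrier (Slc25a12, also called aralar, or Slc25a13, also called citrin), and the cytosolic enzyme (Got1) regenerates oxaloacetate. Citrin is best known from liver, where aspartate also feeds urea synthesis, and aralar from brain and muscle. The alanine aminotransferases Gpt, mainly cytosolic, and Gpt2, mitochondrial, interconvert alanine and pyruvate with the same partner, glutamate.

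The GENCODE M21 annotation of GRCm38 places Got1 on chr19:43499752-43524605 (minus strand), Got2 on chr8:95864134-95888547 (minus) and Gpt2 on chr8:85492576-85527560 (plus). Mdh1 lies on chr11:21556787-21572367 (minus), Slc25a11 on chr11:70644196-70647479 (minus) and Mdh2 on chr5:135778480-135790398 (plus). Slc25a12 lies on chr2:71271063-71367749 (minus), Slc25a13 on chr6:6041218-6217173 (minus) and Gpt on chr15:76695716-76699686 (plus). Of the 2481 stretches of 50 bases in the Got2 transcript, 47.2% also occur in the annotated transcripts of Got2-ps1, Gm10874 or Gm45760, and 379 exon bases of Got2 overlap Gm45760 on the other strand. How the counting treated strand and multiply mapped reads is not given in the sources used here, so the level of Got2 is uncertain. The share was 2.62% for Slc25a12, 1.67% for Gpt2 and 0% for the other 6 genes, and 0 stretches were shared between the 9 genes.

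RefSeq promoters on GRCm38.p6, 250 bases before to 50 bases after the start, were listed for 8 of the 9 genes. The bases before the start of Got2 are shown because Got2 is the gene the choice started from. Those of Got1 and Slc25a12 are shown because they hold the only matches to 4 motifs searched on both strands, with the matching bases in capitals. The stretches are 5′ to 3′ on the minus strand, and that of Got2 ends where its longer annotated transcript begins. They span chr8:95888548-95888651 for Got2, chr19:43524606-43524855 for Got1 and chr2:71367756-71368005 for Slc25a12.
Got2: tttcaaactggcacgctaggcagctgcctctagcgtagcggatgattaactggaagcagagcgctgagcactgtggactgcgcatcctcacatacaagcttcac
Got1: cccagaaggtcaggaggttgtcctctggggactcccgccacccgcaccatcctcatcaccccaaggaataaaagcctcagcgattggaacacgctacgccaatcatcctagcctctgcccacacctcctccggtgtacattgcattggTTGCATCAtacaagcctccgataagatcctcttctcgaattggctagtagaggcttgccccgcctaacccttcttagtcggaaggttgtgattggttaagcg
Slc25a12: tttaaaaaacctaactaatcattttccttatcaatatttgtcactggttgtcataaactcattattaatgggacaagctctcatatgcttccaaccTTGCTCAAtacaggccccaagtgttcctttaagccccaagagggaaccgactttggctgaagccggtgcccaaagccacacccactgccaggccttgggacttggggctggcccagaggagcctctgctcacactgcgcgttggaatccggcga
Got1 holds the C/EBP-ATF element TGATGNAA, on the opposite strand, at position -102 from the RefSeq start, and 3.97% of all 32851 promoters hold this motif. Slc25a12 holds the C/EBP element TTGCNNAA at position -154, a motif found in 10.8% of promoters. The windows of the other 6 genes, Got2 among them, hold neither of these motifs. They also lack the estrogen-related receptor element TNAAGGTCA (1.28% of promoters) and GCATGCGC, an arm of the NRF1 palindrome (2.71%). The 2 matches do not overlap another motif. The 8 promoters were 54.3% to 65% G or C with 12 to 27 CpG dinucleotides, against medians of 52.7% (quartiles 45.7% and 61.7%) and 7 (quartiles 3 and 20) for all promoters.

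In adipocytes 6 of the 9 genes were past the threshold and higher in knockout-labelled than in wild-type libraries, namely Got2, Mdh1, Mdh2, Slc25a11, Gpt and Gpt2. Both aspartate-glutamate carriers, Slc25a12 and Slc25a13, were past it and lower, and Got1 did not pass. The threshold was an adjusted p of 0.05 in edgeR's quasi-likelihood test over 13795 genes with Benjamini-Hochberg adjustment, which called 35.2% of all genes, 18% higher and 17.1% lower. The 2 groups did not overlap for 8 of the 9 genes, against 34.3% of all genes. The median log2 change was 0.55 over the 9 genes and -0.01 over all genes. Since Got2 was picked on this contrast, nothing is read from these counts. Scaling by library totals moved the median of all genes by -0.19 and the share of higher calls to 24.9%, in place of 51.3%, and left the 6 higher and 2 lower genes past the threshold. Among the mice taken on day 76, 2 knockout-labelled against 3 wild-type, 3 of the 9 genes passed (Got2, Gpt and Slc25a12). Over all genes that fit called 1730 of 14338, against 4849 of 13795 in the fit of all mice. Day 70 had 1 wild-type mouse, too few for a fit.

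Endothelial, fibroblast and mural markers were lower in the same knockout-labelled adipocyte libraries. The marker counts that follow stand beside 18% of all genes called higher and 17.1% called lower in this comparison. Summed over 8 endothelial markers the level was 151 to 341 CPM in knockout-labelled and 532 to 1535 CPM in wild-type adipocytes, with 8 of 8 past the threshold and lower. The 9 fibroblast and progenitor markers summed to 592 to 1127 CPM in knockout-labelled and 1341 to 1418 CPM in wild-type libraries, with 8 of 9 lower, and the 7 mural markers to 86.5 to 140 CPM in knockout-labelled and 218 to 325 CPM in wild-type ones, with 7 of 7 lower. The 7 macrophage markers overlapped, with 0 of 7 past the threshold and 56.05 to 301.0 CPM in knockout-labelled and 121 to 253 CPM in wild-type libraries. The 9 adipocyte markers summed to 30222 to 32608 CPM in knockout-labelled and 21169 to 31377 CPM in wild-type libraries. The 12 skeletal muscle markers summed to 7.14 to 7.51 CPM in knockout-labelled and 11.8 to 28.0 CPM in wild-type libraries. Of the 5 of them that were tested Acta1 alone passed and was lower, and most of the sum was Acta1, which averaged 5.49 CPM in knockout-labelled and 18.0 CPM in wild-type libraries. Lymphocyte markers summed to 4.58 to 14.9 CPM in knockout-labelled and 9.04 to 21.4 CPM in wild-type libraries, with 2 of 6 lower. Markers of thermogenic fat cells overlapped in their sum, at 101 to 185 CPM in knockout-labelled and 125 to 187 CPM in wild-type libraries, with 3 of 6 past the threshold and higher (Dio2, Cox7a1 and Ppargc1a) and 1 lower (Cidea). The part of these cells in the differences of the 9 genes was not tested, and in bulk RNA fewer cells of a type and less RNA per cell cannot be told apart.

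**Figure D1:**
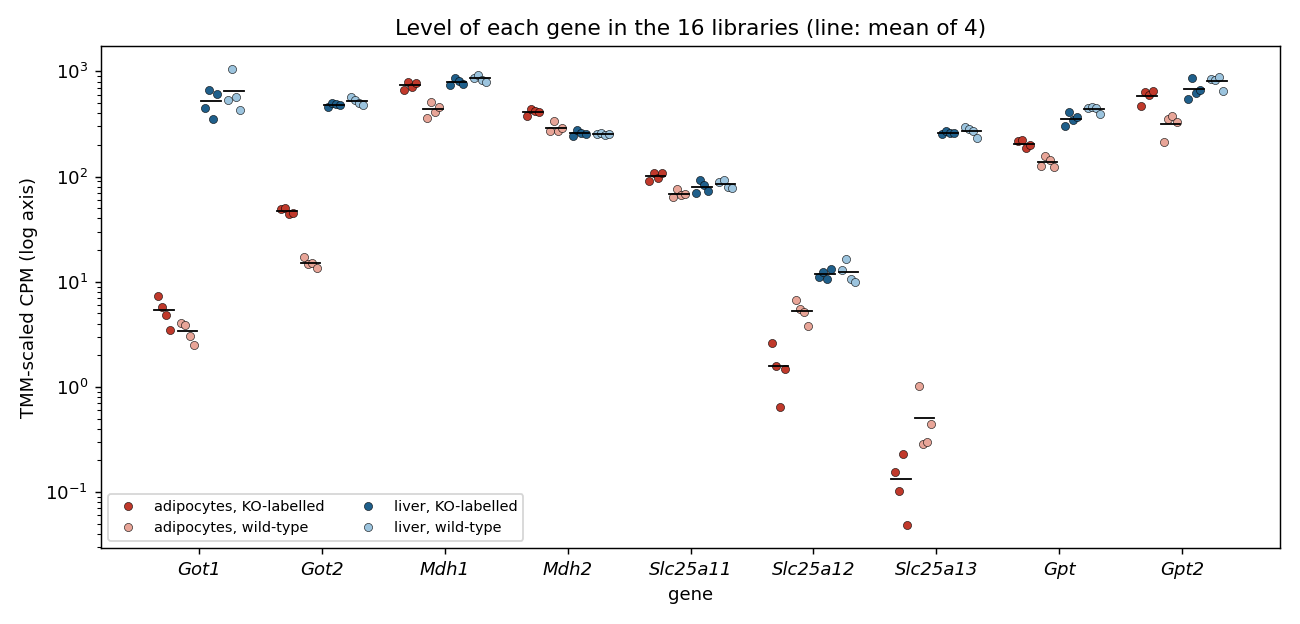
Level of the 9 genes in each library, in TMM-scaled CPM on a log axis, with adipocytes in red and liver in blue, knockout-labelled libraries in the darker and wild-type libraries in the lighter shade. Points are single libraries and lines the mean of 4. Got1, Got2 and Slc25a13 lie far lower in adipocytes than in liver, while Mdh1, Mdh2, Slc25a11, Gpt and Gpt2 lie nearer to their liver levels.

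Got2, the mitochondrial aspartate aminotransferase, was scarce in fat cells and more abundant in knockout-labelled than in wild-type ones. It was at 48.9, 50.1, 44.3 and 44.9 CPM in knockout-labelled adipocytes, against 17.3, 14.6, 15.2 and 13.5 CPM in wild-type ones, with the mice of each group in the order given above (from KO-1137 to KO-1152, and from WT-1135 to WT-1153), as in all such lists that follow. All 4 knockout-labelled libraries lay above all 4 wild-type ones at both ages. The log2 change was 1.61 ± 0.10 (SE, 4 against 4 libraries), 1.64 ± 0.12 among the day-76 mice, and 1.56 to 1.67 without each mouse in turn. In liver Got2 was at 454, 501, 494 and 484 CPM in the knockout-labelled mice, against 569, 540, 505 and 474 CPM in the wild-type mice. The liver groups overlapped, with a log2 change of -0.11 ± 0.08 (edgeR adjusted p = 0.746). Adipocytes held 8.97% to 10.8% of the liver level of the same mouse in knockout-labelled and 2.71% to 3.04% in wild-type mice. As log2 differences between adipocytes and liver these were -3.37 ± 0.08 in knockout-labelled mice (edgeR adjusted p = 7.8e-11) and -5.11 ± 0.14 in wild-type mice (edgeR adjusted p = 1.7e-10).

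Got1, the cytosolic aspartate aminotransferase, had the lower level per kilobase of the pair in fat and a genotype difference that did not reach the threshold. In adipocytes it was at 7.33, 5.75, 4.81 and 3.45 CPM in knockout-labelled mice, against 4.06, 3.90, 3.03 and 2.48 CPM in wild-type mice. The groups overlapped through KO-1152, and the log2 change was 0.64 ± 0.25. Of 17 alternative fits, 3 called Got1: DESeq2, age as a covariate (0.78 ± 0.18) and the fit without KO-1152 (0.81 ± 0.22). These calls are descriptions, as for all adipocyte genotype differences here. In liver Got1 varied most of the 9 genes between mice, with 444, 666, 350 and 615 CPM in knockout-labelled and 530, 1059, 565 and 428 CPM in wild-type mice. The log2 change in liver was -0.31 ± 0.28 (edgeR adjusted p = 0.781), and it was 0.03 without WT-1136, the highest library. Adipocytes lay below liver by log2 differences of -6.61 ± 0.30 in knockout-labelled (edgeR adjusted p = 6.6e-09) and -7.58 ± 0.35 in wild-type mice (edgeR adjusted p = 7.2e-09). Adipocyte Got1 was thus at 0.561% to 1.65% of the liver level of the same mouse in knockout-labelled and 0.368% to 0.766% in wild-type mice.

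The malate dehydrogenases were abundant in both tissues and higher in knockout-labelled adipocytes. Mdh1, the cytosolic enzyme, was at 665, 793, 714 and 779 CPM in knockout-labelled adipocytes, against 361, 510, 413 and 463 CPM in wild-type ones. The groups lay apart, with a log2 change of 0.74 ± 0.12 (0.76 ± 0.20 among day-76 mice). Mdh2, the mitochondrial enzyme, was at 377, 441, 416 and 413 CPM in knockout-labelled adipocytes, against 269, 338, 268 and 291 CPM in wild-type ones. These groups also lay apart, and the log2 change was 0.48 ± 0.10 (0.48 ± 0.17 among day-76 mice). In liver Mdh1 was at 741 to 864 CPM in knockout-labelled and 797 to 931 CPM in wild-type mice (log2 change -0.10 ± 0.09, edgeR adjusted p = 0.776). Liver Mdh2 was at 242 to 275 CPM in knockout-labelled and 250 to 260 CPM in wild-type mice (log2 change 0.03 ± 0.07, edgeR adjusted p = 0.928).

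Between the tissues the malate dehydrogenases differed far less than the aspartate aminotransferases. Mdh1 was lower in adipocytes than in liver of wild-type mice, by a log2 difference of -0.98 ± 0.14 (edgeR adjusted p = 8.2e-05). In knockout-labelled mice its tissue difference was -0.11 ± 0.10 and did not pass (edgeR adjusted p = 0.319), while scaling by library totals gave 0.30 and a call. Mdh2 was higher in adipocytes than in liver of knockout-labelled mice, by 0.67 ± 0.09 (edgeR adjusted p = 3.3e-05). In wild-type mice Mdh2 differed by 0.19 ± 0.11 and did not pass (edgeR adjusted p = 0.117), though it did with library totals (0.84) and in the fit of all 16 libraries (0.20).

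The carriers moved in opposite directions in adipocytes. Slc25a11, the oxoglutarate-malate carrier, was at 91.7, 108, 97.7 and 108 CPM in knockout-labelled adipocytes, against 64.05, 76.2, 66.8 and 68.1 CPM in wild-type ones. Its groups lay apart, with a log2 change of 0.54 ± 0.08 (0.52 ± 0.14 among day-76 mice). Slc25a12, aralar, was at 2.61, 1.58, 0.648 and 1.49 CPM in knockout-labelled adipocytes, against 6.68, 5.48, 5.16 and 3.77 CPM in wild-type ones. Here every knockout-labelled library lay below every wild-type one, with a log2 change of -1.75 ± 0.36 (-1.48 ± 0.28 among day-76 mice) and 28 to 134 counts a library in the knockout-labelled group.

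Slc25a13, citrin, was close to absent from fat cells. Adipocyte libraries held 8, 6, 10 and 2 counts in the knockout-labelled mice, against 64, 14, 14 and 22 counts in the wild-type mice. The groups did not overlap, and the log2 change was -1.95 ± 0.57. The change no longer passed among day-76 mice (-2.07), without WT-1135 (-1.37), without KO-1139 (-1.84) or without KO-1152 (-1.70), and Slc25a13 fell under the filter when all counts were halved. Of the count values from 1 to 20 in the files, 77.9% were even numbers, so such low counts are not counts of single molecules. Alb, the albumin gene and a marker of hepatocytes, moved the same way, with 15.5 to 24.6 CPM in knockout-labelled and 36.0 to 92.8 CPM in wild-type adipocytes. The hepatocyte markers did not move together. Of the 6 tested in adipocytes, 1 passed and was lower (Alb, log2 change -1.88 ± 0.28) and 1 passed and was higher (Hpx, 1.35 ± 0.39). Relative to the liver of the same mouse, adipocyte Alb stood at 0.0165% to 0.0223% in knockout-labelled and 0.0454% to 0.103% in wild-type mice. Adipocyte Slc25a13 stood at 0.0186% to 0.0887% of its liver level in knockout-labelled and 0.101% to 0.343% in wild-type mice. Most other hepatocyte markers lay further below liver than Alb. In wild-type mice the log2 difference, adipocytes over liver, was -8.99 for Slc25a13, -10.45 for Alb, -12.17 for Hpx and -12.61 for Serpinc1. It was -13.92 to -14.44 for Fgb, Apoa1, Apoa2 and Ttr, and -1.45 for Cyp2e1. In knockout-labelled mice it was -10.91 for Slc25a13, -10.66 for Hpx and -12.32 for Alb. The highest Slc25a13 was in WT-1135, whose Alb was the lowest of the 4 wild-type libraries. The part of liver RNA in the Slc25a13 counts was not tested, and these shares and differences were compared after the values had been seen. The 8 hepatocyte markers summed to 2027 to 4058 CPM in knockout-labelled and 2293 to 6765 CPM in wild-type adipocytes. Nearly all of this was Cyp2e1, at 2008 to 4036 CPM in knockout-labelled and 2256 to 6705 CPM in wild-type adipocytes.

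In liver none of the 3 carriers differed between the genotype labels past the threshold. Liver Slc25a11 was at 70.4 to 93.6 CPM in knockout-labelled and 78.0 to 91.7 CPM in wild-type mice (log2 change -0.07 ± 0.10, edgeR adjusted p = 0.881). Liver Slc25a12 was at 10.6 to 13.3 CPM in knockout-labelled and 9.93 to 16.5 CPM in wild-type mice (-0.07 ± 0.16, edgeR adjusted p = 0.922). Liver Slc25a13 was at 256 to 270.2 CPM in knockout-labelled and 232 to 296 CPM in wild-type mice (-0.04 ± 0.09, edgeR adjusted p = 0.912).

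The tissue differences of the carriers ran over a wide range. Slc25a13 was lower in adipocytes than in liver by log2 differences of -10.91 ± 0.20 in knockout-labelled (edgeR adjusted p = 1.3e-11) and -8.99 ± 0.36 in wild-type mice (edgeR adjusted p = 2.0e-09). The value in knockout-labelled mice rests on 2 to 10 counts per adipocyte library, at 0.048 to 0.231 CPM, a spread that its SE does not measure. Slc25a12 was lower too, at -2.90 ± 0.31 in knockout-labelled (edgeR adjusted p = 8.3e-06) and -1.24 ± 0.21 in wild-type mice (edgeR adjusted p = 0.000244). Slc25a11 was higher in adipocytes than in liver of knockout-labelled mice by 0.33 ± 0.10 (edgeR adjusted p = 0.0135), a call lost without KO-1152 (0.26). In wild-type mice Slc25a11 was lower, at -0.30 ± 0.09 (edgeR adjusted p = 0.0111), a call that was lost without WT-1135 (-0.24) and that turned to 0.35 with library totals.

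The alanine aminotransferases were both higher in knockout-labelled adipocytes. Gpt was at 216, 220.4, 185 and 198 CPM in knockout-labelled adipocytes, against 127, 158, 145 and 124 CPM in wild-type ones. The groups lay apart, with a log2 change of 0.55 ± 0.10 (0.59 ± 0.14 among day-76 mice). Gpt2 was at 470.4, 634, 589.7 and 652 CPM in knockout-labelled adipocytes, against 213, 351, 374 and 329.7 CPM in wild-type ones. Its groups also lay apart, and the log2 change was 0.87 ± 0.18 (0.81 ± 0.27 among day-76 mice). In both groups the lowest Gpt2 level was in the mouse with the lowest Mdh1 level, KO-1137 and WT-1135.

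In liver Gpt was at 299, 409, 342 and 366 CPM in knockout-labelled mice, against 448, 463, 448 and 393 CPM in wild-type ones. These groups overlapped, through KO-1139 and WT-1153. Its log2 change of -0.30 ± 0.10 was the only one of the 9 in liver with an unadjusted p under 0.05, and it did not pass after adjustment (edgeR adjusted p = 0.512). Liver Gpt2 was at 551 to 861 CPM in knockout-labelled and 652 to 880 CPM in wild-type mice (-0.24 ± 0.14, edgeR adjusted p = 0.673). Gpt was lower in adipocytes than in liver by -0.80 ± 0.11 in knockout-labelled (edgeR adjusted p = 4.2e-05) and -1.67 ± 0.12 in wild-type mice (edgeR adjusted p = 2.2e-07). Gpt2 was lower, at -1.35 ± 0.19 in wild-type mice (edgeR adjusted p = 5.9e-05). In knockout-labelled mice the tissue difference of Gpt2 was -0.21 ± 0.16 and did not pass (edgeR adjusted p = 0.231), at 0.20 with library totals and not past the threshold there either.

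**Figure D2:**
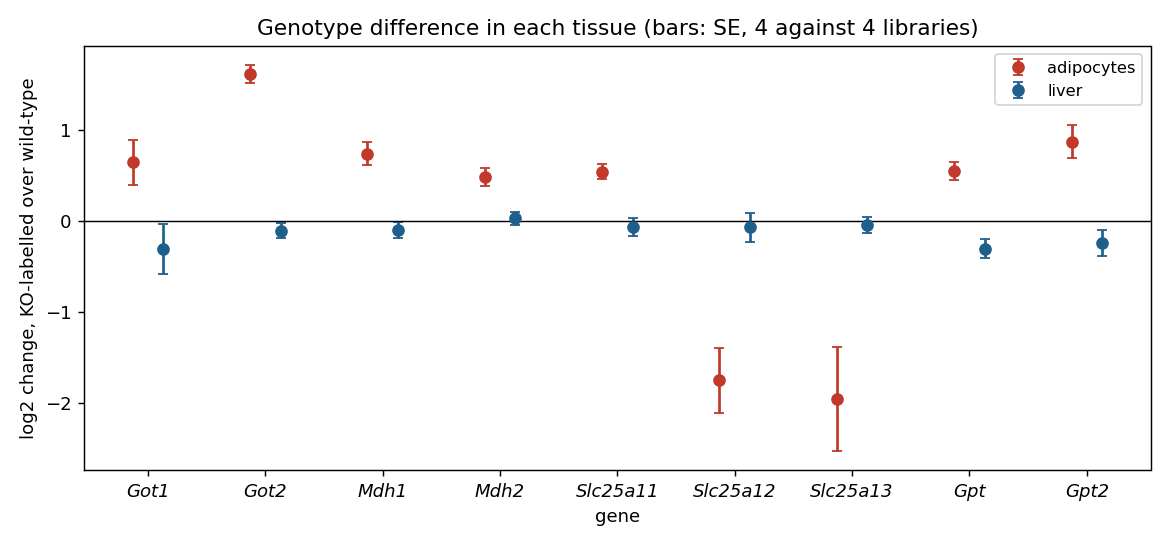
Log2 change of each gene, knockout-labelled over wild-type, in adipocytes (red) and liver (blue), with bars for the standard error of 4 against 4 libraries. Adipocyte changes run from -1.95 for Slc25a13 to 1.61 for Got2, and liver changes from -0.31 for Got1 to 0.03 for Mdh2.

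In all, 0 of the 9 genes passed in the liver comparison of genotype labels, where edgeR called 0.0226% of 13288 genes. At an unadjusted p under 0.05 there were 1 of the 9 genes and 1146 of all genes. DESeq2 called 102 genes in liver and limma-voom 3, with 0 of the 9 in either. The liver groups overlapped for all 9 genes, while they did not for 4.6% of all genes. The difference of the genotype effects, adipocytes minus liver, passed for 8 of the 9 genes, 6 higher and 2 lower, beside 19.1% of 14898 genes (10.4% higher and 8.73% lower). It ran from -1.92 ± 0.48 for Slc25a13 and -1.65 ± 0.39 for Slc25a12 to 1.74 ± 0.13 for Got2, and Got1 (0.98 ± 0.41) did not pass. As it contains the adipocyte contrast, it is given as a description.

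Between the tissues, 7 of the 9 genes passed in knockout-labelled mice, 2 higher and 5 lower in adipocytes than in liver. There edgeR called 79.8% of 14229 genes, 40.4% higher and 39.3% lower. In wild-type mice 8 of the 9 passed, 0 higher and 8 lower, beside 77.6% of 14366 genes, 40.5% higher and 37.2% lower. Counted in either direction, the shares were close to the background in both genotypes, while all 8 calls in wild-type mice were lower, beside the 37.2% of all genes. The median log2 difference of the 9 genes was -0.80 in knockout-labelled mice, against 0.004 over all genes, and -1.35 in wild-type mice, against 0.06 over all genes. Library totals moved the median of all genes by 0.41 in knockout-labelled and by 0.65 in wild-type mice, and gave 65.0% of calls as higher in place of 50.7% in knockout-labelled mice and 73.4% in place of 52.2% in wild-type mice.

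**Figure D3:**
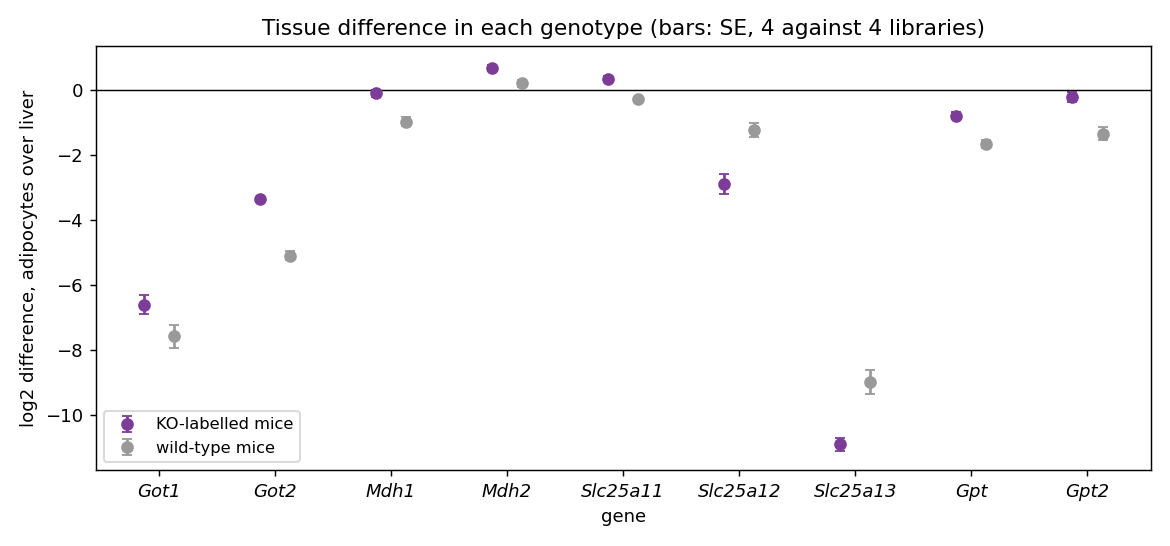
Log2 difference of each gene, adipocytes over liver, in knockout-labelled mice (purple) and wild-type mice (grey), with bars for the standard error of 4 against 4 libraries. The differences span from -10.91 for Slc25a13 to 0.67 for Mdh2, both in knockout-labelled mice.

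Levels of different genes were compared as CPM per kilobase of merged exons. In knockout-labelled adipocytes the order was Mdh1 (348 ± 28.1, SD of 4 libraries), Mdh2 (283 ± 18.1), Gpt2 (161 ± 22.5), Gpt (109 ± 8.72), Slc25a11 (59.2 ± 4.67), Got2 (18.6 ± 1.14), Got1 (2.59 ± 0.793), Slc25a12 (0.249 ± 0.127) and Slc25a13 (0.0431 ± 0.0250). No neighbours in that order overlapped in their ranges. In wild-type adipocytes the order was the same, and Mdh1 (206 ± 30.3) overlapped with Mdh2 (200.2 ± 22.4) and Gpt2 (87.1 ± 19.6) with Gpt (73.5 ± 8.55). The aspartate aminotransferases and the aspartate-glutamate carriers were thus the lowest of the 9 in fat.

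In liver of knockout-labelled mice Mdh1 was highest as well (374 ± 26.1 CPM per kilobase), apart from the next gene. Got1 (252 ± 71.5), Got2 (191 ± 8.09), Gpt (188 ± 24.2), Gpt2 (186 ± 36.3) and Mdh2 (177 ± 9.57) followed, each overlapping its neighbour. Below them, and apart from each other, came Slc25a13 (83.8 ± 1.92), Slc25a11 (46.8 ± 6.18) and Slc25a12 (1.86 ± 0.192). In wild-type liver the order was Mdh1 (403 ± 26.5), Got1 (314 ± 137), Gpt (232 ± 16.2), Gpt2 (221 ± 28.4), Got2 (206 ± 16.3), Mdh2 (174 ± 3.28), Slc25a13 (86.7 ± 8.94), Slc25a11 (49.2 ± 4.01) and Slc25a12 (1.96 ± 0.467). Neighbours from Mdh1 down to Got2 overlapped there, and those from Got2 down lay apart.

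A ratio of the counts of a pair of related genes within a library needs no scaling between libraries. It is not corrected for transcript length, and ratios to Got2 carry the uncertainty of its level given above. In adipocytes the log2 ratio of Got1 to Got2 was -3.70 to -2.74 in knockout-labelled and -2.44 to -1.91 in wild-type libraries, and the groups lay apart. For Mdh1 over Mdh2 it was 0.78 to 0.92 in knockout-labelled and 0.42 to 0.67 in wild-type adipocytes, also apart. The ratio of Slc25a12 to Slc25a13 overlapped, with means of 3.47 in knockout-labelled and 3.51 in wild-type adipocytes. That of Gpt to Gpt2 overlapped too, with means of -1.51 in knockout-labelled and -1.17 in wild-type adipocytes.

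In liver the log2 ratio of Mdh1 to Mdh2 was 1.59 to 1.65 in knockout-labelled and 1.66 to 1.84 in wild-type mice. The difference of -0.13 gave p = 0.0286 in an exact two-sided permutation test, the smallest that 4 against 4 libraries allow, and adjusted p = 0.0429 over the 12 tests of this kind. Adjusted over the 4 liver tests alone the permutation p was 0.114, and with the tissue tests of the 12 paired by mouse it was 0.188, so the call does not hold under either adjustment, both added after the values had been seen. The difference ran from -0.16 to -0.10 without each mouse in turn. The ratio was lower in 4 of 4 knockout-labelled livers, although neither gene passed in liver by itself. For the other 3 pairs in liver the exact permutation test did not pass, with adjusted p of 0.617 to 0.943.

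The ratios within 3 pairs lay apart between the tissues in both genotypes. Counts of Got1 were near those of Got2 in liver, at a mean log2 ratio of 0.06 in knockout-labelled and 0.22 in wild-type mice, against a mean of -3.19 in knockout-labelled and -2.19 in wild-type adipocytes. Slc25a13 outnumbered Slc25a12 in liver, with mean log2 ratios of Slc25a12 to Slc25a13 of -4.48 in knockout-labelled and -4.46 in wild-type mice. In adipocytes the same ratio was positive in all 8 libraries, from 1.44 to 4.64. Each of these differences, and that of Mdh1 to Mdh2, had adjusted p = 0.0429 by the exact permutation test in either genotype. The tissue difference of Gpt over Gpt2 passed in knockout-labelled mice (-0.59, exact permutation adjusted p = 0.0429) and not in wild-type mice (-0.30, adjusted p = 0.190). These permutations leave aside that each mouse gave both tissues. Paired by mouse, an exact sign-flip test of 4 mice cannot go below p = 0.125, so none of these tissue differences in ratio passes in the paired test, although every one of the 7 had the same sign in 4 of 4 mice.

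**Figure D4:**
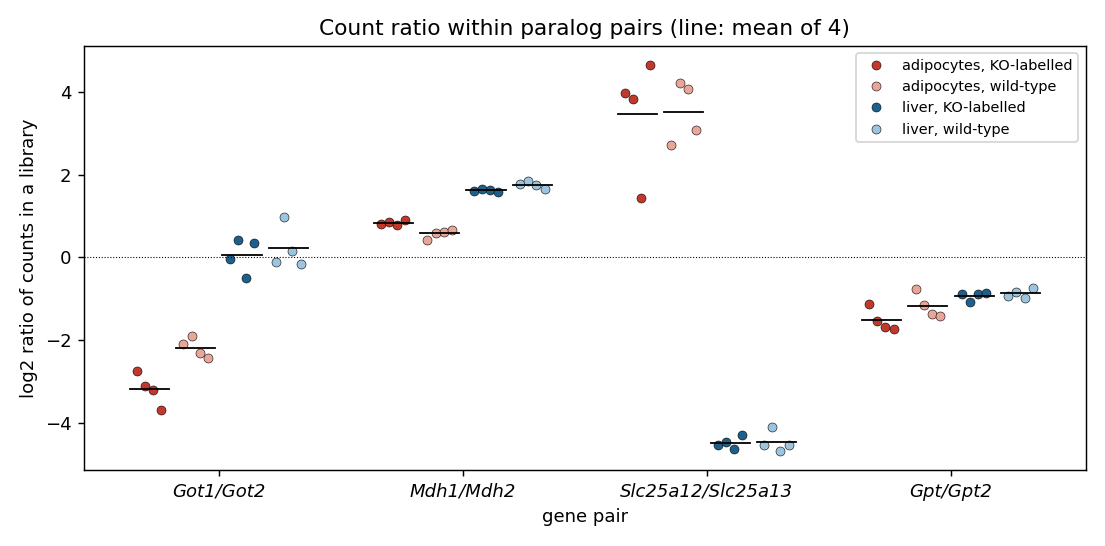
Log2 ratio of the counts of 4 gene pairs in each library, with the mean of 4 libraries as a line and equal counts as a dotted line. The ratio of Slc25a12 to Slc25a13 runs from 1.44 to 4.64 in the adipocyte libraries and lies below 0 in every liver library.

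Other genes of these pathways are given from 7 lists that were drawn up with earlier results of these data known. In adipocytes 15 of 17 tricarboxylic acid cycle genes were past the threshold and higher in knockout-labelled libraries and 0 lower, with a median log2 change of 0.64. They include Idh3a (0.97 ± 0.11) and Idh3b (0.72 ± 0.10), subunits of NAD-dependent isocitrate dehydrogenase, and Dlst (0.73 ± 0.10), a subunit of oxoglutarate dehydrogenase. Of 9 genes of lactate, malate and pyruvate conversion 7 were higher and 0 lower, with a median of 0.72. Among them were the malic enzymes Me1 (1.04 ± 0.20, cytosolic) and Me2 (1.55 ± 0.14, mitochondrial) and the lactate dehydrogenase subunit gene Ldhb (1.14 ± 0.08). These counts stand beside the 18% of all genes called higher.

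The remaining lists were mixed, and their counts stand beside 18% of all genes called higher and 17.1% called lower. Of 9 further mitochondrial carriers 5 were higher and 1 lower in knockout-labelled adipocytes. The higher ones include Slc25a18 and Slc25a21 at low levels. Slc25a18 averaged 0.947 CPM in knockout-labelled and 0.422 CPM in wild-type adipocytes, and Slc25a21 0.503 CPM in knockout-labelled and 0.188 CPM in wild-type ones. The pyruvate carrier subunits Mpc1 (0.82 ± 0.13) and Mpc2 (1.47 ± 0.14) were among the higher ones, and Ucp2, an uncoupling protein, was lower (-1.02 ± 0.27). Of the glycerol phosphate shuttle, the other main route for cytosolic NADH, the mitochondrial enzyme gene Gpd2 was higher (0.74 ± 0.16). Gpd1, the cytosolic enzyme of that shuttle, was at 0.12 ± 0.17, and Gpd1l at 0.23 ± 0.08, neither past the threshold. Of 12 other aminotransferases 8 were tested in adipocytes, and 1 was higher and 1 lower. Ccbl1, a kynurenine aminotransferase, was at 0.48 ± 0.11, Bcat1, the cytosolic branched-chain aminotransferase, at -1.11 ± 0.22, and Oat, ornithine aminotransferase, at 0.20 ± 0.09, not past the threshold. Of 10 tested genes of glutamate, glutamine and aspartate use 3 were higher and 1 lower. The higher ones were Asns (asparagine synthetase, 0.67 ± 0.11), Aspa (aspartoacylase, 0.75 ± 0.14) and Glud1 (glutamate dehydrogenase, 0.52 ± 0.13). Of the 6 urea cycle genes, Asl alone was tested in adipocytes (-0.06 ± 0.08, not past the threshold).

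In liver 0 of 63 tested genes of the 7 lists were past the threshold for genotype by edgeR, with 10 at an unadjusted p under 0.05, while limma-voom called 0 and DESeq2 3, namely Slc25a10, Agxt2 and Ccbl2. Over all 13288 genes tested in liver, edgeR called 3, with 1146 at an unadjusted p under 0.05, while limma-voom called 3 and DESeq2 102. The counts between tissues that follow stand beside 40.5% of all genes called higher and 37.2% called lower in wild-type mice, and 40.4% higher and 39.3% lower in knockout-labelled mice. Between the tissues of wild-type mice all 6 urea cycle genes were lower in adipocytes than in liver, as they were in knockout-labelled mice. Cps1, the first enzyme of the cycle, averaged 0.138 ± 0.256 CPM in adipocytes and 3202 ± 1190.3 CPM in liver (SD, 4 libraries each). Otc, the next enzyme of the cycle, averaged 0.0668 ± 0.0370 CPM in adipocytes and 936 ± 43.7 CPM in liver. Of the 12 other aminotransferases 4 were higher and 8 lower in adipocytes, in knockout-labelled as in wild-type mice. Tat, tyrosine aminotransferase, averaged 0.202 ± 0.280 CPM in adipocytes against 3113 ± 1156 CPM in liver. Agxt, alanine-glyoxylate aminotransferase, averaged 0.020 ± 0.040 CPM in adipocytes against 487 ± 110 CPM in liver. Of the 17 tricarboxylic acid cycle genes 10 were higher and 3 lower in knockout-labelled mice, against 6 higher and 7 lower in wild-type mice, a difference in split that was not tested. In wild-type mice Cs, citrate synthase, was higher in adipocytes by 1.81 ± 0.12 (edgeR adjusted p = 1.5e-07). Of the 9 further carriers 5 were higher and 3 lower in knockout-labelled mice, against 4 higher and 4 lower in wild-type mice, where Slc25a15, the ornithine carrier, was lower, at -5.34 ± 0.21 (edgeR adjusted p = 1.7e-09). Of the 12 genes of glutamate, glutamine and aspartate use 6 were higher and 5 lower in knockout-labelled mice, against 7 higher and 5 lower in wild-type mice. Of the lactate, malate and pyruvate genes 7 of 8 tested were higher and 0 lower in knockout-labelled mice, against 8 of 9 higher and 1 lower in wild-type mice. All 3 glycerol phosphate shuttle genes were higher in adipocytes in both genotypes, Gpd1 in wild-type mice by 2.55 ± 0.18 (edgeR adjusted p = 2.4e-07).

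**Figure D5:**
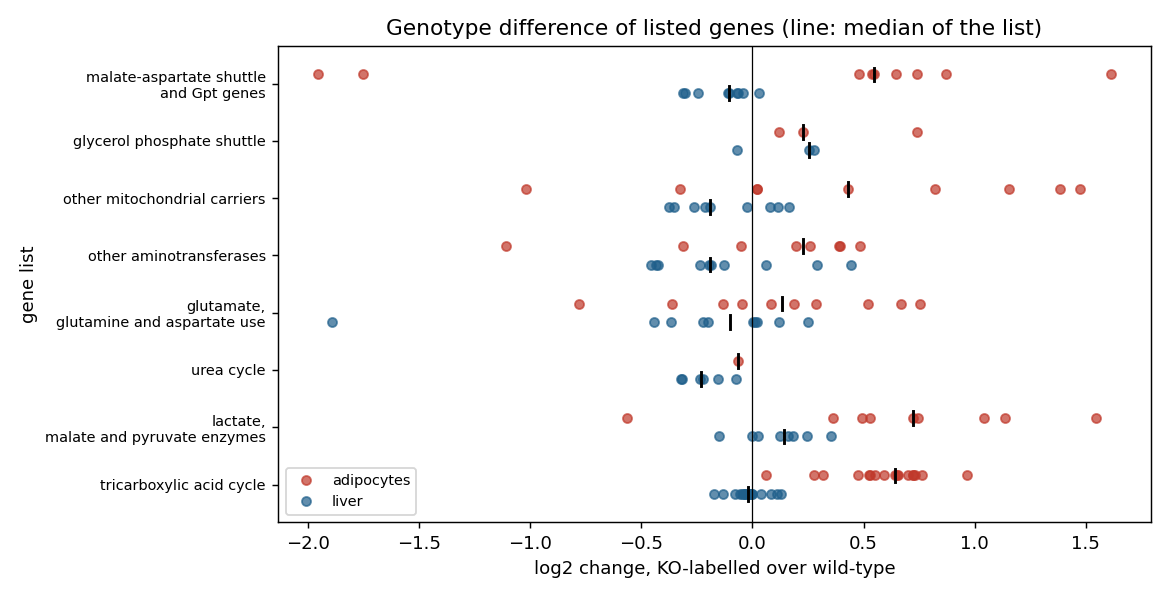
Log2 change, knockout-labelled over wild-type, of each tested gene of the 9-gene set and of 7 further lists, in adipocytes (red) and liver (blue), with the list median as a black line. The adipocyte medians lie at 0.64 for the tricarboxylic acid cycle and 0.55 for the 9 genes, and the liver point at -1.89 is Asns, which did not pass.

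The genes whose pattern over the 16 libraries was most like that of Got2 were sought among the 12634 tested genes that averaged 1 CPM or more. Likeness was the root mean square difference in log2 CPM after centring, so a low value means a close pattern. Cxadr was closest (0.26), followed by Mreg (0.27), Pecr (0.34), Ttc39c (0.35) and Ociad2 (0.35). Cxadr averaged 7.03 CPM in knockout-labelled and 1.91 CPM in wild-type adipocytes, against 62.6 CPM in knockout-labelled and 61.6 CPM in wild-type liver. Pecr averaged 20.8 CPM in knockout-labelled and 11.1 CPM in wild-type adipocytes, against 259 CPM in knockout-labelled and 274 CPM in wild-type liver. Got1, the closest of the other 8 genes, ranked 1387 (1.43), and Mdh2 was the farthest of them at rank 7391 (2.36). The libraries share their tissue and genotype groups, so likeness is mostly that of the 4 group levels.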

How the data were processed

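Polyadenylated RNA was measured in 16 libraries. Each deposited file holds the unnormalized counts of 1 library by gene symbol. The tools named in the submitters' processing notes are featureCounts 1.5.0, STAR 2.5.2b and bcl2fastq 2.17, and the build named there is mm10. No annotation is named in the sources used here. Per the labels' protocols, the stated minimum RNA integrity number was lower for adipose than for liver RNA.

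Genes were tested with edgeR 4.0.16 (quasi-likelihood, two-sided, R 4.3.3), with TMM scaling, filterByExpr and Benjamini-Hochberg adjusted p under 0.05, fitted over all genes of a tissue (genotype) or a genotype (tissue), and over 16 libraries for the difference of genotype effects. DESeq2 1.42.0 and limma 3.58.1 were alternatives, beside other scalings, no filter, halved counts, an age covariate, day-76 mice alone, the mouse as a block and each mouse left out. Log2 count ratios used a pseudocount of 0.5 and exact permutation over libraries. CPM in the text is TMM-scaled over 16 libraries, so its ratios differ slightly from fitted changes. The SE of a fitted change was derived from edgeR's test, as the absolute log2 change over the square root of the F statistic. It is not the spread between libraries and can be too small for large changes at low counts. The tests were tested on simulated data with known changes.

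Over all genes the SE of a log2 change had a median of 0.138 in adipocytes and 0.137 in liver. No pair of libraries of a group agreed within counting error, with chi-square per degree of freedom at 30.4 or more, so each was counted as a sample. Per the labels a number stands for a mouse, so its 2 libraries are paired, and over 14898 genes Pearson's r between their deviations from the group mean was -0.0842 to 0.140 (genes are not independent replicates).

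The 9 genes and all lists were chosen with earlier results of these data known. Named by rule were the 9 genes, of each list up to 3 genes with the smallest p for genotype in adipocytes and up to 2 with the largest tissue difference in wild-type mice, and the 5 genes most like Got2. Markers and the Alb comparison were named beside results, Alb after its values were seen. Slc25a18 was named for its low level.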

Additional observations from a re-analysis of the deposited data

Results flagged for a closer look

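The genotype effect differed between adipocytes and liver past the threshold for 8 of the 9 genes, by edgeR's test of the difference itself, as a log2 difference, adipocytes minus liver. The same test called 19.1% of 14898 genes, 10.4% higher and 8.73% lower. The difference was 1.74 for Got2, 1.14 for Gpt2, 0.87 for Gpt, 0.86 for Mdh1, 0.63 for Slc25a11 and 0.47 for Mdh2, and it was -1.65 for Slc25a12 and -1.92 for Slc25a13. This contrast contains the one on which Got2 was picked, so the values are descriptions.

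Of 52 groups of 4 libraries examined, 2 had a library far from the other 3, and chance flags about 1 in 20 groups. Liver Mdh2 was at 260 CPM in WT-1136, against 250 to 252 CPM in the other 3 wild-type livers. The log2 count ratio of Gpt to Gpt2 was -1.07 in the liver of KO-1139, against -0.88 to -0.87 in the other 3 knockout-labelled livers.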

How the results depend on the processing

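Under the alternatives for genotype in adipocytes, 141 of 152 values of the 9 genes kept their direction and side of the threshold, as did 153 of 153 in liver, 106 of 108 between tissues in knockout-labelled mice, 104 of 108 in wild-type mice and 129 of 135 for the difference of genotype effects. The fits of adipocyte genotype and of the difference of genotype effects use the values that Got2 was picked on, so their counts are descriptions. With day-76 mice alone, 3 of the 9 genes and 1730 of all genes were called in adipocytes, from fewer mice. In liver all genes called were 3 in the reported fit, 5 without the filter, 102 with DESeq2, 0 with day-76 mice and 1 to 3 with a mouse left out; the lowest count came without KO-1137, WT-1138 or KO-1139. For the difference of genotype effects 1758 to 2988 genes were called with a mouse left out, against 2845, and the count fell by over 1.5 times without WT-1135 (1780), KO-1139 (1798) or KO-1151 (1758). Library totals turned the tissue difference of Slc25a11 in wild-type mice to 0.35 and that of Mdh1 in knockout-labelled mice to 0.30. Mdh2 lost its call for the difference of genotype effects with library totals (0.24) and without WT-1135, WT-1138, KO-1152, KO-1151 or KO-1139 (0.44 to 0.48). The cause of these changes was not tested. With the mouse as a replicate block, 7 genes of the 9 were called between tissues in knockout-labelled mice (11175 of all genes), 8 in wild-type mice (10759) and 8 for the difference of genotype effects (2245), and no call among the 9 changed. For the count ratios the block allows no p below 0.125, so the 7 tissue differences in ratio that passed unpaired did not pass with it. Depth limits Slc25a13 in adipocytes, at 2 to 64 counts.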
